A study of Mus musculus with 2 samples.

Results

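Iron handling was followed through 10 mouse genes for iron storage (Ftl1, Fth1), uptake (Trf, Tfrc, Slc11a2), export (Slc40a1, Cp), heme breakdown (Hmox1, Hmox2) and iron sensing (Ireb2). The genes were chosen by name, with earlier results of these data known. All 10 matched a row among the 43346 gene rows of each table. Total RNA had been sequenced from the tissue labelled neural tube, the structure that forms brain and spinal cord, of 2 B6NCrl pups at postnatal day 0. Each pup gave 1 tube and 1 library, and the labels give both pups the same pregnancy. The labels name no treatment, and sex was not collected. The series therefore holds 1 group (n = 2) with no contrast between conditions, and no p-value was computed. Values over both pups are means ± SD, and the SD measures the spread between 2 littermates only.

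Cells store iron inside ferritin, a hollow shell built from light and heavy chains, of which the heavy chain oxidises iron. Transferrin carries iron in blood and brain fluid, the transferrin receptor takes it into cells, and the transporter made by Slc11a2 moves it out of the endosome. Ferroportin, made by Slc40a1, is the known iron exporter of animal cells, and ceruloplasmin oxidises the exported iron. Heme oxygenases open the heme ring and release its iron. Iron regulatory proteins, one of them made by Ireb2, bind hairpins called iron-responsive elements in mRNA when iron is scarce. Such binding blocks translation from a hairpin in the 5′ UTR and stabilises an mRNA with hairpins in the 3′ UTR, so mRNA levels of these genes do not give protein levels.

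The hairpins are shown because several of these genes, though not all, hold one. Transcripts of GENCODE M21 (GRCm38) were searched on their own strand for a loop CAGTGN closed by 5 base pairs, with an unpaired C before the 5′ side of the stem and G-T pairs allowed. The main transcripts of 4 of the 10 genes held it, against 0.628% of all 141767 transcripts and 0.808% of all genes. Each site is printed as 30 bases, 5′ to 3′ as in the transcript, with the 6 loop bases in capitals. The sites of Ftl1 (chr7:45459779-45459808, minus strand), Fth1 (chr19:9982731-9982760, plus strand) and Slc40a1 (chr1:45925465-45925494, minus strand) lay in the 5′ UTR. Those of Tfrc (chr16:32631218-32631247, chr16:32631597-32631626, chr16:32631662-32631691 and chr16:32631709-32631738, plus strand) lay in the 3′ UTR.
Ftl1: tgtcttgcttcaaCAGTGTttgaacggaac
Fth1: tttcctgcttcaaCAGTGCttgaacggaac
Slc40a1: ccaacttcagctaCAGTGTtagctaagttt
Tfrc a: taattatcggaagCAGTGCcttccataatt
Tfrc b: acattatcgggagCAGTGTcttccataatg
Tfrc c: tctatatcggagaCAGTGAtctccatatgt
Tfrc d: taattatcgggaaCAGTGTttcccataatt
The ferritin sites matched at 27 of 30 bases and differed by T2G, C5T and C19T, where the Fth1 base comes before the position, counted from 1 at the 5′ end, and the Ftl1 base after it. The Slc40a1 site matched each ferritin site at 13 of 30 bases. Pairs of the 4 Tfrc sites matched at 18 to 25 of 30.

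No Slc11a2 transcript matched that pattern. With 1 unpaired base allowed on the 3′ side of the stem, a setting added after this was seen, Slc11a2-205 matched in its 3′ UTR (chr15:100395153-100395182, minus strand), and 2.29% of all transcripts did.
Slc11a2: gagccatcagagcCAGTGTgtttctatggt
The wider pattern left Trf, Cp, Hmox1, Hmox2 and Ireb2 without a match. It also matched a short processed transcript, Slc40a1-204, with 1.71 counts in pup 1 and 0 in pup 2, which was not used. A match is a description of these letters and says nothing of whether a protein binds there.

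**Figure D1:**
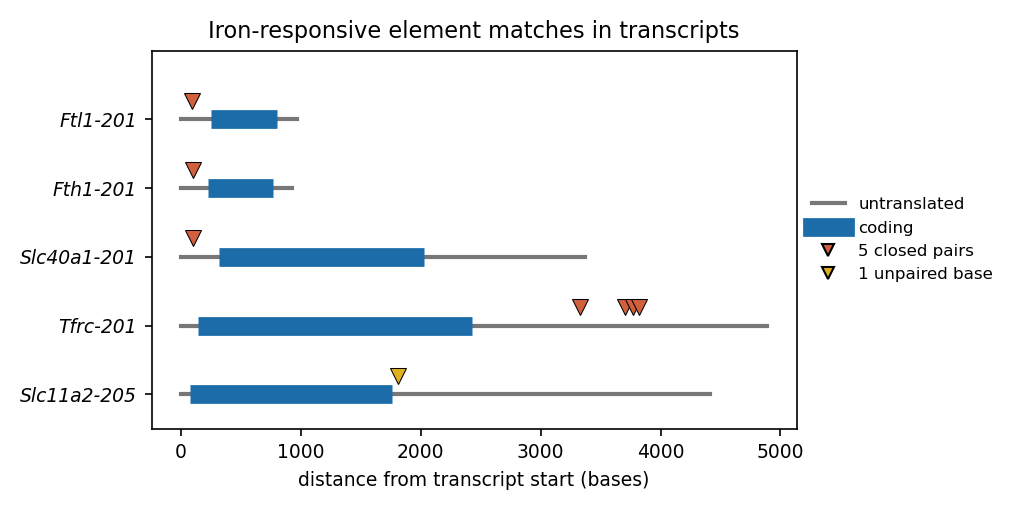
Positions of the loop matches (triangles) along 5 transcripts, in bases from the transcript start, with the coding part as a thick bar and untranslated parts as a thin line. Ftl1, Fth1 and Slc40a1 have 1 match each before the coding part, Tfrc has 4 after it, and Slc11a2-205 has 1 after it with an unpaired base.

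The libraries held 26916916 and 40003518 expected counts on gene rows in pups 1 and 2, a depth ratio of 1.49, and the mean count of each of the 10 genes was above 100. Neuronal markers were detected for 6 of 6 genes, with summed TPM (transcript abundance scaled for transcript length and library size) of 2832 and 2618 in pups 1 and 2. Summed TPM was 748 and 779 for astrocytes, 407 and 718 for oligodendrocytes, 207 and 216 for microglia, 1350 and 2727 for meningeal fibroblasts, and 3740 and 2888 for erythroid genes. In bulk tissue, fewer cells of a type and less RNA per cell cannot be told apart. Intervals given below cover counting error only.

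Ferritin made up nearly all RNA of the 10 genes, at 95.8% and 96.0% of their summed TPM in pups 1 and 2. Ftl1, the light chain (chromosome 7, 45457944 to 45459884, GRCm38), stood at 3254 TPM in pup 1 and 3505 in pup 2, or 3379.5 ± 177 (SD, n = 2). It ranked 7 among 21461 nuclear protein-coding genes by mean TPM. Fth1, the heavy chain (chromosome 19, 9980598 to 9985098), stood at 2523 and 2912 TPM, or 2717 ± 275, and ranked 11. Both were higher in pup 2. Together they took 0.578% and 0.642% of all TPM in pups 1 and 2. The ranges of the 2 genes did not overlap, with every Ftl1 value above every Fth1 value.

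The ratio of light to heavy chain TPM was 1.29 in pup 1 and 1.20 in pup 2, or 1.25 ± 0.0612 (SD, n = 2). Light chain RNA was thus in excess in both pups. In expected counts, which are not divided by length, Ftl1 had 48034 and 79691 and Fth1 33377 and 59352, so the ratio was 1.44 and 1.34. Of ferritin counts, Ftl1 took 59.0% in pup 1 (95% Clopper-Pearson interval 58.7 to 59.3) and 57.3% in pup 2 (57.1 to 57.6). These counting intervals lay apart, so the pups differed by more than counting error, but 1 library per pup gives no replicate check.

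Ferritin values are uncertain where rows share reads. Ftl1-ps1, a copy 99.6% identical to the main Ftl1 transcript over 910 bases, was listed at 848 and 1218 counts. Adding named pseudogene rows to their parents gave ratios of 1.31 and 1.22. Gm22133, a 109-base miRNA row on the same strand, lies within an Ftl1 exon (chromosome 7, 45458089 to 45458197). It held 627 and 784 counts, few beside those of Ftl1, yet its deposited TPM was 3634.5 and 2951, because the deposited effective length of that row is 10 bases. The deposited point values of Ftl1 and Fth1 TPM lay above their own deposited intervals in both pups (for Ftl1 3120 to 3179.5 and 3404 to 3454), whereas those of the 8 other genes lay inside in both. This is not particular to ferritin, since Pcbp1, Tubb3 and Stmn2, among others, also lay above their intervals in both pups. Posterior mean TPM gave light to heavy chain ratios of 1.29 and 1.20 as well.

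**Figure D2:**
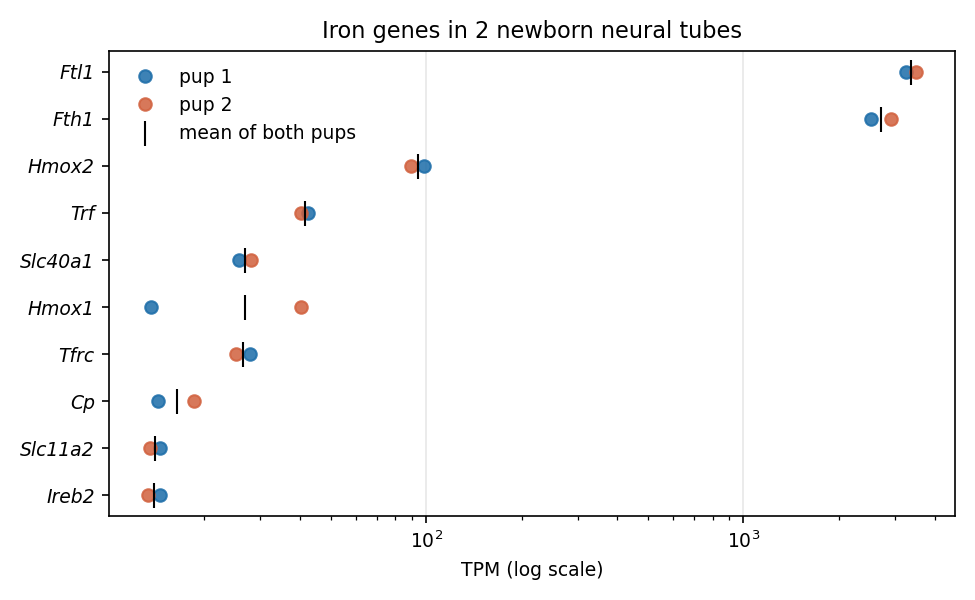
TPM of the 10 genes on a log axis, with 1 point per pup and a black bar at the mean of both. Ftl1 and Fth1 lie between 2523 and 3505 TPM, the other genes at 98.5 or lower, and the Hmox1 points, 13.5 and 40.3, are the farthest apart in ratio.

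On the uptake side, RNA of the ligand exceeded that of its receptor per length. Trf, transferrin (chromosome 9, 103204001 to 103230444), was at 42.4 and 40.5 TPM in pups 1 and 2, or 41.5 ± 1.39 (SD, n = 2). Tfrc, the transferrin receptor (chromosome 16, 32608920 to 32632794), was at 27.9 and 25.1, or 26.5 ± 1.94. The ratio of Trf to Tfrc TPM was 1.52 and 1.61, while the ratio of their counts was 0.829 and 0.865, since Tfrc transcripts are longer. Slc11a2, the endosomal iron transporter DMT1 (chromosome 15, 100387898 to 100425072), was at 14.5 and 13.5, or 14.0 ± 0.700. All 3 uptake genes were slightly lower in pup 2, by 0.08 (Trf), 0.14 (Tfrc) and 0.14 (Slc11a2) on the log2 scale of CPM (counts scaled to library size, here with TMM factors), and the counting interval of Trf included 0. Trf overlaps Gm20425 on the same strand, a row with 0 and 111 counts in pups 1 and 2. Reads of the pair may be mixed, so the direction of the small Trf difference is uncertain. Transferrin is known as a product of liver, choroid plexus and oligodendrocytes. Hepatocyte markers summed to 21.6 and 10.3 TPM and choroid plexus markers to 9.88 and 13.7 in pups 1 and 2. Kcnj13 was the highest choroid plexus marker, at 3.36 and 6.44 TPM, and Otx2 had 0 counts in both pups. Of the 6 choroid plexus markers whose mean count reached 10, 4 were higher and 2 lower in pup 2. Oligodendrocyte markers were higher in pup 2, as given above, and Trf was not. The part of these cell types in the Trf value was not tested.

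Of the export genes, ferroportin exceeded ceruloplasmin per length, with a TPM ratio of 1.80 in pup 1 and 1.52 in pup 2. Slc40a1, ferroportin (chromosome 1, 45908068 to 45926523), was at 25.8 and 28.1 TPM in pups 1 and 2, or 26.9 ± 1.63 (SD, n = 2). Its TPM was 0.925 and 1.12 times that of Tfrc, so which of the pair was higher differed between the pups. Cp, ceruloplasmin (chromosome 3, 19957054 to 20009145), was at 14.3 and 18.5, or 16.4 ± 3.01, and its deposited intervals (13.5 to 17.2 and 17.7 to 20.8) did not overlap. Cp was 1.37-fold higher in pup 2, with a log2 ratio of 0.46 and a counting interval of 0.33 to 0.59. Cp overlaps Hps3 on the other strand, with 499 and 773 counts there, and because the strand setting of the counting is unknown, reads of the pair may be mixed.

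Of the heme oxygenase RNAs, that of the constitutive enzyme was the higher in both pups. Hmox2, heme oxygenase 2 (chromosome 16, 4726361 to 4766742), was at 98.5 and 89.8 TPM in pups 1 and 2, or 94.1 ± 6.13 (SD, n = 2). Hmox1, the inducible heme oxygenase (chromosome 8, 75093621 to 75100589), was at 13.5 and 40.3, or 26.9 ± 18.9. Its intervals, 12.1 to 15.3 and 37.8 to 41.7, lay far apart. Hmox2 thus exceeded Hmox1 7.27 times in pup 1 and 2.23 times in pup 2. Hmox2 overlaps Cdip1 on the other strand, with 4635.5 and 6523 counts there, so the same doubt about strand holds for it.

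The genes of iron sensing were of moderate RNA level. Ireb2, iron regulatory protein 2 (chromosome 9, 54863789 to 54912530), was at 14.5 and 13.3 TPM in pups 1 and 2, or 13.9 ± 0.834 (SD, n = 2). Aco1, which makes the other iron regulatory protein and doubles as the cytosolic aconitase, was 1.93 and 2.04 times as high per length. Aco1 was set beside Ireb2 after its value was seen.

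In order of mean TPM the genes ran Ftl1, Fth1, Hmox2, Trf, Slc40a1, Hmox1, Tfrc, Cp, Slc11a2 and Ireb2. Neighbours whose 2 values overlapped were Slc40a1 and Hmox1, Hmox1 and Tfrc, Cp and Slc11a2, and Slc11a2 and Ireb2. Values of the other neighbours lay apart. All 10 genes reached 1 TPM, the level taken as detected, in each pup, and the median of detected nuclear protein-coding genes was 17.2 TPM.

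Slc11a2 RNA was split mainly between 2 long forms with different 3′ ends. Slc11a2-205, the form with the hairpin in its 3′ UTR, ends in a last exon at 100392563 to 100395323 on chromosome 15. It held 50.9% of the gene's TPM in pup 1 and 45.9% in pup 2, or 48.4% ± 3.54 (SD, n = 2). Slc11a2-201 splices to a last exon further downstream, at 100387898 to 100389161, holds no match, and took 34.2% and 32.9%, or 33.6% ± 0.933. The first exons of both forms overlap. In TPM, Slc11a2-205 was at 7.36 and 6.18 and Slc11a2-201 at 4.95 and 4.43, with deposited intervals that lay apart within each pup (6.38 to 7.76 against 3.96 to 5.50 in pup 1, and 5.49 to 6.54 against 3.66 to 4.89 in pup 2). The ratio of the 2 forms was 1.49 and 1.40, or 1.44 ± 0.065.

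Counts behind these shares were 548 and 709 for Slc11a2-205 and 250 and 345 for Slc11a2-201 in pups 1 and 2. Of their joint counts Slc11a2-205 took 68.7% (95% Clopper-Pearson interval 65.3 to 71.9) and 67.3% (64.3 to 70.1), and these intervals overlapped. The 2 forms held 97.5% and 96.7% of the gene's counts but 85.1% and 78.8% of its TPM. The rest of the TPM came from short annotated pieces with few reads, such as Slc11a2-204 at 0 and 9.66% on 0 and 10.2 counts. Slc11a2-202 and Slc11a2-208, which start further upstream, were at 0 counts in both pups, and the third such form, Slc11a2-207, held 2.15 counts in pup 1 and 0 in pup 2.

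**Figure D3:**
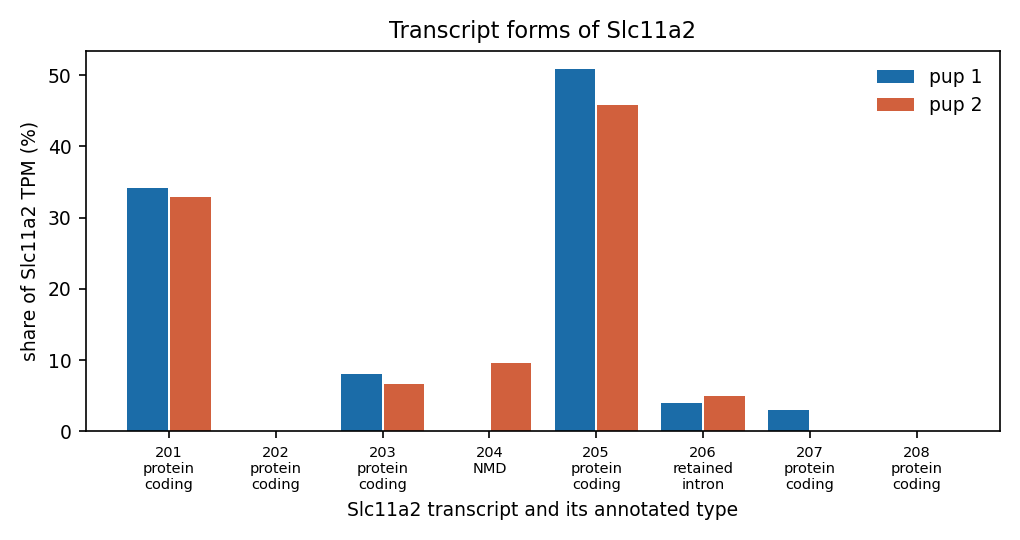
Share of Slc11a2 TPM (percent) in each of its 8 annotated transcripts, with 1 bar per pup and the annotated type under each number (NMD, nonsense-mediated decay). Slc11a2-205 is highest in both pups (50.9% and 45.9%), ahead of Slc11a2-201 (34.2% and 32.9%).

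The hairpin was held by most RNA of the other genes that have it. Transcripts with a match made up 99.1% and 100% of Slc40a1 TPM and 82.1% and 77.3% of Tfrc TPM in pups 1 and 2. For Ftl1 the share was at least 93.6% in both, because 4 of its 5 deposited transcripts are not in GENCODE M21 and were not searched. Fth1 had a single deposited transcript, 866 bases long against 929 in GENCODE M21, so the match was found in the newer model.

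Several genes carried RNA annotated as retaining introns. The share of TPM in such transcripts was 45.3% ± 1.62 for Tfrc, 30.7% ± 2.80 for Cp and 18.9% ± 9.99 for Trf (SD, n = 2). Tfrc-201, the full coding form, took 48.7% and 51.0% of Tfrc in pups 1 and 2, and the retained-intron form Tfrc-204, which holds the same 4 hairpins, took 33.4% and 26.2%. Trf-201 took 74.5% and 71.4% of Trf, while the 433-base piece Trf-209 took 11.5% and 25.7% on 28.0 and 92.3 counts. Cp was led by Cp-201 with 34.1% and 36.0%. Hmox2 was split among coding forms, with Hmox2-203 at 60.9% and 56.9% and Hmox2-201 at 33.0% and 33.7%. The same transcript led in both pups for all 10 genes.

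**Figure D4:**
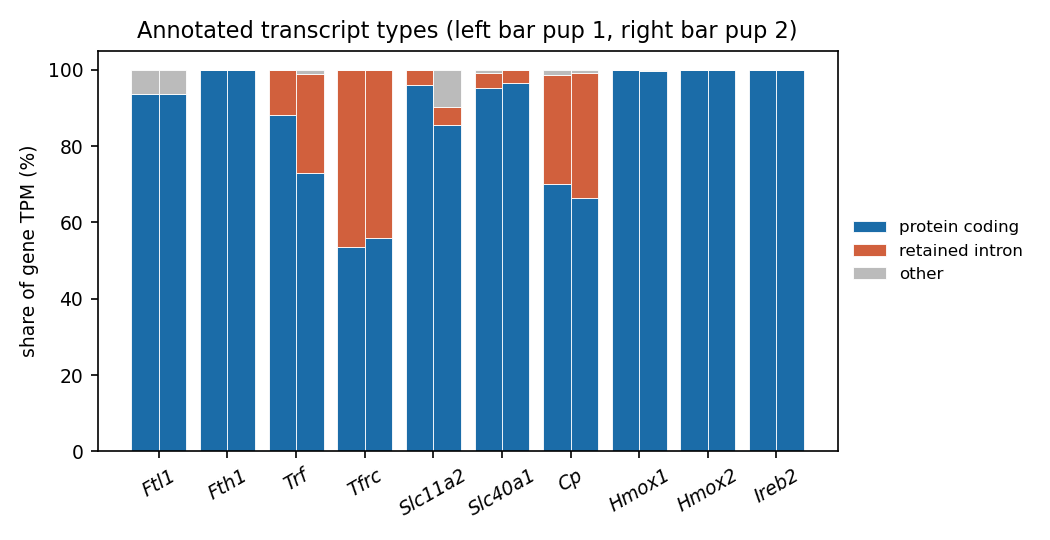
Share of each gene's TPM (percent) in transcripts annotated as protein coding, as retaining an intron, or otherwise (including transcripts not in GENCODE M21), with pup 1 on the left and pup 2 on the right of each pair. Tfrc and Cp have the largest retained-intron shares, 45.3% and 30.7% on average. Fth1, Hmox2 and Ireb2 have no deposited transcript of that type, so their share could only be 0. The Hmox1 transcript of that type had 0 counts in both pups. For Ftl1 none is shown, but 4 of its transcripts are of unknown type.

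Between the pups, Hmox1 stood out among the iron genes. It had 352 expected counts in pup 1 and 1611 in pup 2, and was 3.11-fold higher in pup 2 (log2 ratio 1.64, counting interval 1.47 to 1.81). It was the single gene of 10 past 2-fold, against 0.472% of the 13545 gene rows whose mean count reached 100. Of those rows 0.413% (56) were higher and 0.0591% (8) lower in pup 2. With a mean count of 10 as the limit the background was 2.39%, and at 1.5-fold it was 2.01%, while the number of iron genes stayed at 1. The lower limit could not change that number, because each iron gene had a mean count above 100. Of the 13545 rows, 21 had a larger absolute log2 ratio than Hmox1. Of the 10 genes 5 were higher and 5 lower in pup 2, and their median log2 ratio was 0.06, against 0.0011 over all rows tested. Deposited TPM intervals lay apart for 4 genes (Ftl1, Fth1, Cp and Hmox1), against 23.6% of all rows tested.

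Directions of small differences depend on the scale. Fth1 was 1.21-fold, Slc40a1 1.15-fold and Ftl1 1.13-fold higher in pup 2 under TMM, with log2 ratios of 0.28, 0.21 and 0.18. With spike-in totals as the scale (335 and 603 counts), the median log2 ratio of all rows shifted by -0.29. The log2 ratios then became -0.02 for Fth1, -0.09 for Slc40a1 and -0.12 for Ftl1, and 30 rows were higher and 28 lower by 2-fold. Hmox1 stayed 2.54-fold higher in pup 2 on that scale, and Cp 1.12-fold.

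Hmox1 is known to be made by macrophages that clear red cells and by many stressed cells. Microglia markers were detected for 6 of 6 genes, with summed TPM of 207 and 216, and none was past 2-fold. Border macrophage markers summed to 81.0 and 107, with the heme scavenger receptor Cd163 at 1.01 and 0.88 and Pf4 at 60.0 and 84.6. Erythroid markers were lower in pup 2 for 7 of the 8 genes whose mean count reached 10, and Hemgn had 1 and 0 counts. Meningeal fibroblast markers were higher in pup 2 for 7 of 7 genes, with Ptgds at 922 and 2190 TPM, and oligodendrocyte markers for 6 of 7. The part of these cell types in the Hmox1 and Cp differences was not tested.

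**Figure D5:**
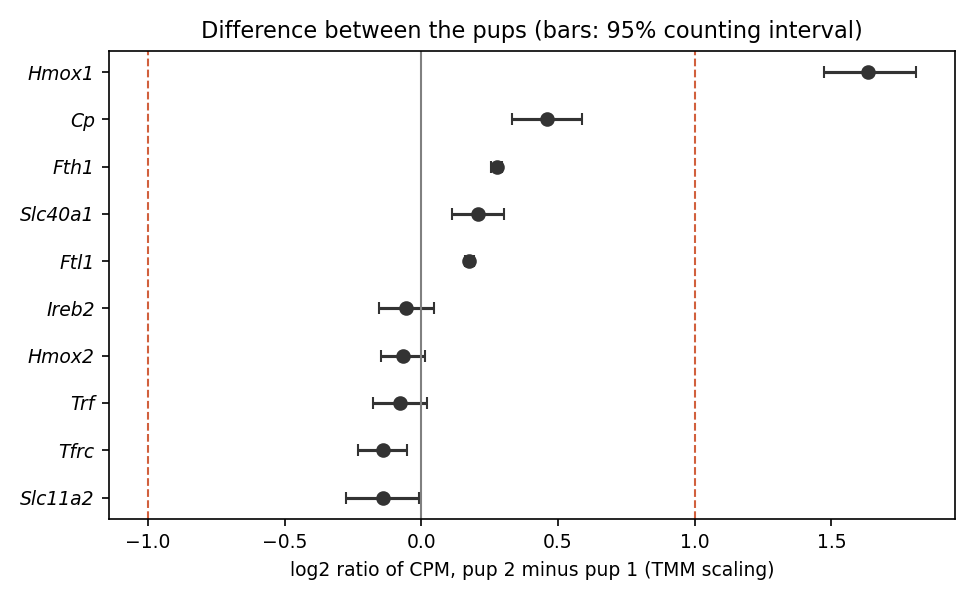
Log2 ratio of TMM-scaled CPM, pup 2 minus pup 1, for the 10 genes (points) with 95% counting intervals (bars) and dashed lines at 2-fold. Hmox1 at 1.64 is the single gene past a dashed line, followed by Cp at 0.46.

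Most genes of the wider iron and heme pathway were detected. Across 6 lists, 57 of 68 genes reached 1 TPM in each pup. The share of all gene rows that reached 1 TPM is not given here. Counts of detected genes, here and elsewhere in the text, are therefore descriptions without a background. Of the 56 whose mean count reached 100, 0 differed 2-fold, a count near the background of 0.472% of all rows tested. Their log2 ratios ran from -0.37 (Alas2, the erythroid heme synthesis enzyme) to 0.76 (Smad4, a signal transducer of bone morphogenetic proteins, 9.71 and 16.1 TPM). Their median was 0.06, against 0.0011 over all rows tested.

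Genes of iron regulation and ferritin turnover were detected for 10 of 11. Pcbp1, which hands iron to ferritin, was at 248 ± 19.3 TPM, Ncoa4, the receptor that sends ferritin for degradation, at 67.2 ± 2.14, and Fbxl5, which targets iron regulatory protein 2 for degradation, at 66.4 ± 0.410 (SD, n = 2). Ftmt, mitochondrial ferritin, had 0 counts in both pups, which allows up to 0.111 CPM in pup 1 and 0.075 in pup 2. Further uptake and transport genes were detected for 13 of 16, led by the endolysosomal channel gene Mcoln1 at 74.3 ± 8.05, the clathrin adaptor Picalm at 15.0 ± 2.15 and the mitochondrial iron importer Slc25a28 at 13.2 ± 0.156. Lcn2, a siderophore binder, reached 1 TPM in pup 2 alone (0.99 and 1.98).

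The hepcidin axis, which sets body iron, was detected for 6 of 9 genes with a row. Neo1 was at 22.3 ± 1.17 TPM, Smad4 at 12.9 ± 4.50 and Hfe at 6.95 ± 0.375 (SD, n = 2), while Hamp, hepcidin itself, had 1 count in pup 1 and 0 in pup 2. Heme synthesis genes were detected for 9 of 9, with Alad at 59.3 ± 4.40, Alas1, the rate-limiting enzyme outside red cells, at 50.8 ± 0.0424 and Urod at 48.9 ± 2.58. Heme transport and breakdown genes were detected for 9 of 13. Slc48a1, a lysosomal heme transporter, was at 100.01 ± 2.72, Lrp1, a receptor that also takes up heme bound to hemopexin, at 79.1 ± 14.2 and Por, the electron donor of heme oxygenase, at 63.2 ± 6.98. Hp reached 1 TPM in pup 2 alone (0.56 and 1.18), and Cd163 in pup 1 alone. Blvra and Blvrb, the biliverdin reductases that act after heme oxygenase, were at 25.9 and 26.7 and at 20.6 and 20.0 TPM in pups 1 and 2; they were named after their values were seen. Iron-sulfur cluster genes were detected for 10 of 10, led by Glrx5 at 226 ± 11.2, Isca1 at 135 ± 0.573 and Iscu at 104 ± 7.70.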

How the data were processed

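Total RNA-seq libraries of 2 newborn neural tubes were used, 1 per pup. Per the labels' protocols, extraction was by mirVana, the size range was over 200 bases and 10 ng of RNA started each library. The deposited gene and transcript tables hold expected counts (estimated reads, not whole), TPM scaled by the authors over all rows, interval bounds of TPM as a signal in the same unit, and the percent of gene TPM per transcript. Per the deposited notes the build is mm10 with GENCODE M4. For the aligner, the versions and the strand, the setting is not given in the sources used here. Symbols, spans and transcript sequences came from GENCODE M21 (GRCm38).

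Expected counts were rounded; TMM and log2 CPM ratios (prior count 2) used edgeR 4.0.16 in R 4.3.3 over gene rows, with TMM factors from rows with a mean count of at least 10. DESeq2 1.42.0 gave alternative size factors. Rows that are not Ensembl mouse genes (spike-ins, tRNAs) were left out of these counts. Similar rows were found with blastn 2.17.0 (85% identity, 300 bases). Other steps used Python 3.11.15, pandas 2.3.3 and scipy 1.17.1. The fold rule was tested on simulated data. Members and lists were chosen with earlier results of these data known. Named genes were all members, the 3 highest of each pathway list, and list genes reaching 1 TPM in 1 pup only or past 2-fold. Markers were named only from the highest, the lowest and those at 0 of their lists, and not every list has a named marker. The endothelial and oligodendrocyte precursor lists are not described above. Alas2, Ftmt and Hamp were named after their values were seen. With 2 libraries no likeness of patterns was computed. The Hjv symbol matched no row, and its older name Hfe2 did.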

Additional observations from a re-analysis of the deposited data

How the results depend on the processing

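No paired analysis was possible because there is 1 group and no contrast. The ferritin TPM ratio of 1.25 moved by more than its SD in expected counts (1.39), which are not divided by length. In counts with the Gm22133 row added to Ftl1 it was 1.41 (added after seeing the data). That value lay within the SD of 0.068 of the count ratio of 1.39. The TPM ratio stayed within its SD with posterior mean TPM (1.25), named pseudogene rows (1.27) and rows alike by sequence (1.27, added later). It was 1.20 to 1.29 with a pup left out. Of Slc11a2 TPM 0% lay in transcripts with the strict hairpin, and 48.4% with 1 unpaired base allowed (added later). That share was 66.0% of expected counts, 43.0% of posterior mean TPM and 53.3% of coding transcripts, and 45.9% to 50.9% with a pup left out. All 10 genes passed a threshold of 5 TPM, and of 1 TPM with posterior mean TPM. Passing 0.5 TPM, or 1 TPM in each pup alone, follows from reaching 1 TPM in both pups. The count of genes past 2-fold was 1 under every scaling and prior count tried and at 1.5-fold. The count filters could not change it, because the mean count of each of the 10 genes was above 100. Gene levels moved by more than their SD for 7 of 10 genes when TPM was rescaled without tRNA, spike-in and mitochondrial rows, and for 2 of 10 with posterior mean TPM. With 2 pups, leaving one out cannot move a mean past its SD. Spike-in totals moved the log2 ratio of 10 of 10 genes outside its counting interval, deposited TPM that of 2 and library totals that of 1. DESeq2 size factors, a prior count of 0.5 and posterior mean counts moved 0. No alternative reversed a called value. With 2 littermates, the spread of each value is itself poorly known.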

Other observations

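Hmox1 is a known target of the antioxidant regulator Nfe2l2 and of its competitor Bach1. A list of 10 other antioxidant response genes was written after the Hmox1 value had been seen, so it is given as a description only. Of the 9 genes on it whose mean count reached 100, 0 were past 2-fold, which is near the background of 0.472% of all rows tested. By TMM-scaled CPM, 8 were higher and 1 lower in pup 2. Their median log2 ratio was 0.17, with a range from -0.03 to 0.47, against a median of 0.0011 over all rows tested. Slc7a11, the cystine transporter, was at 3.33 and 4.35 TPM in pups 1 and 2. Gclm, a subunit of an enzyme in the glutathione synthesis pathway, was at 43.4 and 56.9, and Nqo1, a quinone reductase, at 15.6 and 16.3. Srxn1 hardly differed, with a log2 ratio of 0.01 in CPM but slightly lower TPM in pup 2 (28.3 and 28.0). Txnrd1 was the 1 lower gene by CPM (42.5 and 39.9 TPM). With spike-in totals as the scale, the median of all rows shifted by -0.29, which is larger than the median of 0.17 here. Directions of these small differences therefore depend on the scale. Nfe2l2 itself was at 12.2 and 13.8 TPM and Bach1 at 10.8 and 10.5, both named after their values were seen.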
